A study of Mus musculus with 24 samples.

Results

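Dendritic cell maturation and migration genes were followed across sorted mononuclear phagocytes of mouse muscle. They were Fscn1, Il4i1, Ccr7, Ccl22, Ccl17, Dpp4, Flt3 and Cd83, 8 of the 19057 genes of the array, and 10 of its 45281 probes carry their symbols. The genes were chosen from measured values of these arrays, for their level in the F4/80lo subset on day 4 after injury. Their levels in that subset are therefore given as a description, with no test. Each gene was read from its detected probe with the highest mean, and the second probes of Dpp4 and Flt3 are named where they appear. Fscn1, Il4i1, Ccr7 and Dpp4 stood highest in the F4/80lo subset, Dpp4 by the probe read here but not by its second probe. Ccl17 had its highest mean there and overlapped with untreated Mgl1hi cells. Ccl22 was not detected on any array, the probes of Flt3 disagreed, and Cd83 was present everywhere.

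The arrays came from tibialis anterior muscle 4 days after an injection of notexin, a myotoxic venom phospholipase, and from untreated muscle. The strains were Cx3cr1-/-, which lacks the fractalkine receptor, Ccl2-/-, which lacks the monocyte chemoattractant, Cx3cr1-/-Ccl2-/-, which lacks both, and C57Bl/6 as wild type (WT), all of them adult mice, female and male. Cells were sorted as CD11b+ Ly6G- NK1.1- and then parted into F4/80lo Ly6Clo cells (called F4/80lo), F4/80lo Ly6Chi cells (Ly6Chi), and Ly6Clo cells high in that macrophage antigen, with high or low Mgl1 (Mgl1hi and Mgl1lo). All 4 subsets were measured on day 4 and only Mgl1hi and Mgl1lo in untreated muscle, so that 16 arrays were from day 4 and 8 from untreated muscle. For day 4 the paper describes a single sort with 1 pool of 3 mice for each strain. The untreated arrays are taken to come from 1 pool for each strain as well, which the paper does not state. Each array is thus taken as 1 pool, a group is 4 arrays (n = 4, 1 of each strain), and the SD of a group is the spread between strains. Which sex each pool held is not stated.

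A dendritic cell that has taken up antigen in a tissue matures, leaves through the lymph vessels and presents the antigen to T cells in the lymph node. On the way it raises CCR7, which reads the lymph node chemokines CCL19 and CCL21, rebuilds its actin skeleton into long veils with fascin, and shows CD83 and costimulatory proteins on its surface. FLT3 is the growth factor receptor that dendritic cells and their precursors depend on, and CCL17 and CCL22 are chemokines of dendritic cells and macrophages that draw T cells bearing CCR4.

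The signals are log2 intensities after background correction and quantile normalization, and a probe counts as detected at a detection p under 0.05. Detected probes numbered 7054 to 18289 per array (median 15786.5). They were under 12000 on 4 arrays, called weak here, which were Cx3cr1-/- F4/80lo (7054), Cx3cr1-/-Ccl2-/- F4/80lo (10072), Cx3cr1-/- Mgl1hi on day 4 (9369) and untreated Ccl2-/- Mgl1lo (9896). Among the disrupted genes, Cx3cr1 was lower in the arrays labelled Cx3cr1-/- and Cx3cr1-/-Ccl2-/- (4.91 and 5.02 in Ly6Chi, 5.32 and 4.96 in Mgl1lo on day 4) than in those labelled Ccl2-/- and WT (6.41 and 7.56 in Ly6Chi, 7.04 and 6.64 in Mgl1lo). In F4/80lo it was 7.21 and 6.46 in the arrays labelled Cx3cr1-/- and Cx3cr1-/-Ccl2-/-, against 6.65 and 6.21 in those labelled Ccl2-/- and WT, so the probe does not separate the genotypes there. In Mgl1hi on day 4 it was 6.77 in the array labelled Cx3cr1-/-, against 6.58 in that labelled WT. Ccl2 was detected on every array outside F4/80lo, those labelled Ccl2-/- included, and where its probe lies relative to the disrupted part is not stated. Strain names are those of the labels throughout.

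**Figure D1:**
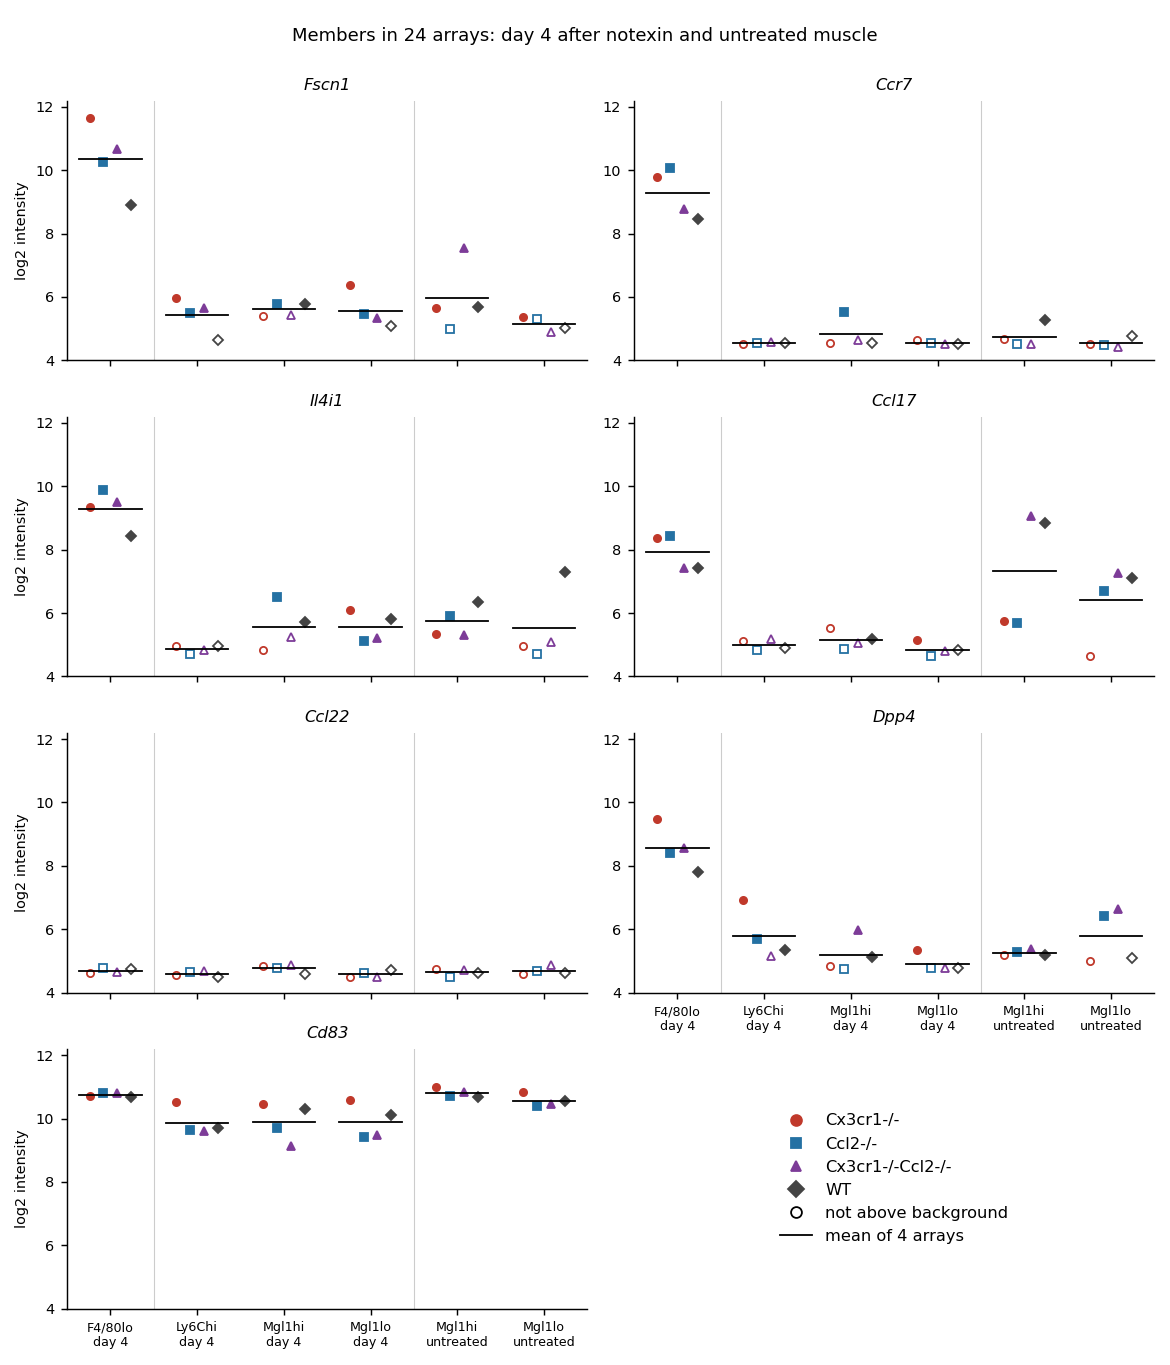
Log2 intensity of 7 of the genes (vertical axis) on each of the 24 arrays, by subset and condition (horizontal axis). Each point is 1 strain, open points are not above background and lines are means of 4 arrays. Fscn1, Ccr7, Il4i1 and Dpp4 stand above every other array in F4/80lo, and Ccl17 is shared with untreated Mgl1hi and Mgl1lo. The means of Cd83 are lowest in the day-4 groups outside F4/80lo, and its Mgl1lo arrays on day 4 overlap with the untreated ones.

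Ccr7, the chemokine receptor that guides dendritic cells to the lymph node, was detected on all 4 F4/80lo arrays and on 2 of the other 20. It measured 9.79 in Cx3cr1-/-, 10.08 in Ccl2-/-, 8.76 in Cx3cr1-/-Ccl2-/- and 8.45 in WT F4/80lo cells (9.27 ± 0.79, SD, n = 4). Elsewhere it was detected only in Ccl2-/- Mgl1hi on day 4, at 5.54, and in untreated WT Mgl1hi, at 5.27. No F4/80lo array overlapped with any other array. Where no array of a group was detected, the fold is a lower bound, with the mean over the 4 F4/80lo arrays set against the mean, over the arrays of that group, of the lowest detected signal or the gene's own signal, whichever was higher. By this measure Ccr7 was at least 16.02-fold higher in F4/80lo than in Ly6Chi, at least 17.8-fold higher than in Mgl1lo on day 4 and at least 13.7-fold higher than in untreated Mgl1lo. A sorted subset is a bulk sample, so a larger share of cells with the transcript and more transcript per cell cannot be told apart here or below.

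The chemokine genes Ccl17 and Ccl22 both lie on chromosome 8, and only Ccl17 gave a signal. Ccl17 measured 8.38 in Cx3cr1-/-, 8.43 in Ccl2-/-, 7.43 in Cx3cr1-/-Ccl2-/- and 7.42 in WT F4/80lo cells (7.92 ± 0.57). Untreated Mgl1hi cells carried it as well, at 5.76 in Cx3cr1-/-, 5.68 in Ccl2-/-, 9.06 in Cx3cr1-/-Ccl2-/- and 8.85 in WT (7.34 ± 1.87), which spans the whole F4/80lo range. Untreated Mgl1lo cells had 6.69 in Ccl2-/-, 7.27 in Cx3cr1-/-Ccl2-/- and 7.10 in WT, and 4.64, not detected, in Cx3cr1-/-. On day 4 little was left outside F4/80lo, since Ccl17 was detected in 1 of 4 Mgl1hi arrays (WT, 5.19), in 1 of 4 Mgl1lo arrays (Cx3cr1-/-, 5.15) and in no Ly6Chi array. Its level in F4/80lo was at least 6.26-fold above Ly6Chi. In the order of the group means, F4/80lo overlapped with untreated Mgl1hi, and untreated Mgl1hi with untreated Mgl1lo.

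Ccl22 read 4.49 to 4.88 on the 24 arrays and was not above background on any of them, F4/80lo included, so no fold is given. A probe without signal does not show that the transcript was absent.

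The promoters of both chemokine genes are shown because both encode ligands of CCR4 and their probes differed in signal. The windows run from 250 bases before to 50 bases after the annotated start (RefSeq, GRCm38.p6), chr8:94810203-94810502 for Ccl17 and chr8:94745434-94745733 for Ccl22, both on the plus strand and 64470 bases apart. Capitals mark the only match to any motif that was searched.
Ccl17: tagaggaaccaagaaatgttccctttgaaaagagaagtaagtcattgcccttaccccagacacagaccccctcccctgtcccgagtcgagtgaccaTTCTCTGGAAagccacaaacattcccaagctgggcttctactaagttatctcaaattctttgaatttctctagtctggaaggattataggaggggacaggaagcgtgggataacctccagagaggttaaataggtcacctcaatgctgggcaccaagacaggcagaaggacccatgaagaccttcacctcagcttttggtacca
Ccl22: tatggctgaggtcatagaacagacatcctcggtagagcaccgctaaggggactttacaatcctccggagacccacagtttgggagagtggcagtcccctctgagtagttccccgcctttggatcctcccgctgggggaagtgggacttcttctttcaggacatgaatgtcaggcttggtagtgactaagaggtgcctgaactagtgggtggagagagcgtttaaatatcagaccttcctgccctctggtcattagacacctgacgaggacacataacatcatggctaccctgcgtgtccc
The capitals in Ccl17 match the STAT6 pattern (TTC, any 4 bases, GAA), the motif of the factor that interleukin-4 activates, at position -154 from the start. This pattern is in 6.95% of 32851 promoter windows of the same length. NF-kB sites were searched as GGG, a purine, any base, A or T, 2 pyrimidines and CC, a pattern found in 4.51% of windows. Neither this pattern nor the AP-1 pattern TGANTCA, found in 7.81%, had a match in the 6 windows that could be matched to the genes. Those of Ccr7 and Cd83 could not be matched. The Il4i1 window held the PU.1 pattern GAGGAAGT on the opposite strand (3.2% of windows) and the Dpp4 window the IRF pattern (GAAA, any 2 bases, GAAA) on the opposite strand (3.44%). All patterns were searched on both strands, and a match describes the letters only.

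Fscn1, which encodes the actin bundler fascin, was high on every F4/80lo array. It measured 11.63 in Cx3cr1-/-, 10.26 in Ccl2-/-, 10.69 in Cx3cr1-/-Ccl2-/- and 8.89 in WT F4/80lo cells (10.37 ± 1.14). The next highest array of the series was untreated Cx3cr1-/-Ccl2-/- Mgl1hi, at 7.54. On the remaining day-4 arrays it lay between 4.64 and 6.38, with 8 of 12 detected. The mean of F4/80lo was 4.83 log2 units above the mean of the other 3 day-4 subsets, a 28.5-fold difference.

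Il4i1 encodes a secreted oxidase that breaks down phenylalanine and is made by antigen-presenting cells. In F4/80lo it was 9.35 in Cx3cr1-/-, 9.88 in Ccl2-/-, 9.52 in Cx3cr1-/-Ccl2-/- and 8.43 in WT (9.30 ± 0.62). In Ly6Chi it was not detected on any array (4.72 to 4.96), which puts F4/80lo at least 16.3-fold higher. The Mgl1 subsets held a low level on most arrays, with means of 5.57 ± 0.71 in Mgl1hi and 5.57 ± 0.47 in Mgl1lo on day 4, and 5.74 ± 0.50 in untreated Mgl1hi. In untreated Mgl1lo 1 of 4 arrays was detected, WT at 7.30. No F4/80lo array overlapped with any other array.

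Dpp4 encodes CD26, a surface peptidase that trims the ends of chemokines and other peptides. Its level in F4/80lo was 9.49 in Cx3cr1-/-, 8.41 in Ccl2-/-, 8.55 in Cx3cr1-/-Ccl2-/- and 7.82 in WT (8.57 ± 0.69). Outside F4/80lo the highest values were 6.91 in Cx3cr1-/- Ly6Chi and 6.63 and 6.40 in untreated Cx3cr1-/-Ccl2-/- and Ccl2-/- Mgl1lo. The mean of F4/80lo was 9.74-fold (3.28 log2 units) above that of the other day-4 subsets, in which 6 of 12 arrays were detected. The second Dpp4 probe (ILMN_1239782) was detected on 3 of 24 arrays, none of them F4/80lo, and so does not show this pattern.

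The difference that chose these genes depended in size on the background correction. Without it, F4/80lo lay above the other day-4 subsets by 3.03 for Fscn1 and 1.60 for Dpp4. Without the weak arrays the values were 4.03 for Fscn1 and 2.79 for Dpp4. In the 2 weak F4/80lo arrays Fscn1, Il4i1, Ccr7, Ccl17, Dpp4 and Cd83 were all detected, while Ccl22 and both Flt3 probes were not. Every F4/80lo array was above every other array for 4 of the 8 genes (Fscn1, Ccr7, Il4i1 and Dpp4), which 0.419% of 21252 probes detected on at least 4 arrays also did. The genes were chosen on this contrast, so nothing is read from that count.

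Flt3 was read by 2 probes that did not give the same picture. With the probe on the RefSeq transcript (ILMN_2761370), F4/80lo had 8.38 in Ccl2-/- and 9.01 in WT, and 5.14 in Cx3cr1-/- and 5.17 in Cx3cr1-/-Ccl2-/-, neither detected. It was not detected on the 20 other arrays, at 4.51 to 5.14. The mean of the 4 F4/80lo arrays was at least 2.62 to 3.50-fold above the other groups by the bound used for Ccr7. The 2 F4/80lo arrays without signal were the weak ones and also the ones labelled as lacking Cx3cr1, so the strain and the weak arrays cannot be told apart. With the probe on a cDNA clone (ILMN_2576268), which has the higher mean, the F4/80lo arrays lay at 5.45 to 5.95, detected in Ccl2-/- (5.67) and WT (5.92). The highest value of that probe was 6.63 in Cx3cr1-/- Mgl1hi on day 4, so it does not place Flt3 highest in F4/80lo on each array.

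**Figure D2:**
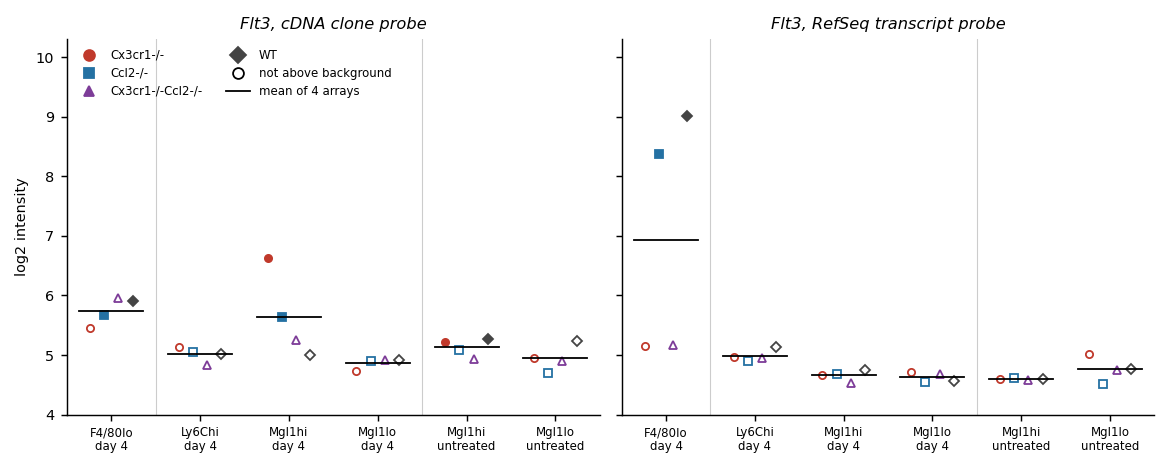
Log2 intensity (vertical axis) of the 2 Flt3 probes on each array, by subset and condition (horizontal axis). Points are strains, open points are not above background and lines are means of 4 arrays. The RefSeq transcript probe is detected only in the F4/80lo arrays of Ccl2-/- and WT, at 8.38 and 9.01.

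Cd83 encodes a surface protein of mature dendritic cells that macrophages and lymphocytes can also make, and it was detected on all 24 arrays. In F4/80lo its level after normalization hardly varied, at 10.70 in Cx3cr1-/-, 10.82 in Ccl2-/-, 10.81 in Cx3cr1-/-Ccl2-/- and 10.69 in WT (SD 0.07). Before normalization the signals of these arrays were 822.1, 2211.7, 1073.6 and 2009 in the same order, lowest on the weak arrays. Untreated Mgl1hi was as high, with 10.98 in Cx3cr1-/-, 10.72 in Ccl2-/-, 10.85 in Cx3cr1-/-Ccl2-/- and 10.68 in WT (10.81 ± 0.14). The group means of untreated Mgl1hi, F4/80lo and untreated Mgl1lo (10.56 ± 0.20) followed each other with overlapping arrays. Means were lower in the other day-4 subsets, at 9.87 in Ly6Chi, 9.90 ± 0.60 in Mgl1hi and 9.89 ± 0.55 in Mgl1lo, whose ranges overlapped with each other. The F4/80lo mean was 1.83-fold above these 3 subsets, and 0.25 log2 units above them when the arrays were scaled to 1 median.

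Day 4 was compared with untreated muscle within Mgl1hi and within Mgl1lo, without the F4/80lo arrays for whose levels the genes were picked, although the levels in these groups were known too. The fit of limma held the subset, the day, their interaction and the strain over 16 arrays, and a probe had to be detected on at least 8 of them. The filter left 5 genes (Fscn1, Il4i1, Ccl17, Dpp4 and Cd83), whereas Ccr7, Ccl22 and Flt3 were not tested. Of 15624 probes, 3.97% were called in Mgl1hi at a Benjamini-Hochberg adjusted p under 0.05 (1.13% higher and 2.84% lower, median difference -0.11) and 15.6% in Mgl1lo (9.18% higher and 6.37% lower, median 0.10). When arrays were scaled to a common median without quantile normalization, this was 44 higher and 930 lower in Mgl1hi, against 177 and 443, and 5132 higher and 333 lower in Mgl1lo, against 1434 and 996. That scaling moved the median of all probes to -0.44 in Mgl1hi and to 0.65 in Mgl1lo.

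In Mgl1hi, 1 of the 5 genes was called. Cd83 was lower on day 4 in 4 of 4 strains, at 10.45 in Cx3cr1-/-, 9.70 in Ccl2-/-, 9.15 in Cx3cr1-/-Ccl2-/- and 10.29 in WT, and every one of these lay below the untreated arrays given before. Of 21252 probes, 7.12% separated the day-4 from the untreated Mgl1hi arrays in this way. The difference was -0.91 (SE 0.24, adjusted p = 0.0495 in limma), and it passed in 6 of 14 alternatives, with adjusted p values of 0.0142 to 0.281. It did not pass without WT (0.0825), Cx3cr1-/- (0.13), Ccl2-/- (0.122) or Cx3cr1-/-Ccl2-/- (0.281, difference -0.65), without the strain as a replicate block (0.0906), or with 1 value for each pool of mice (-0.79, 0.0758). In Mgl1lo, Cd83 was 10.58 in Cx3cr1-/-, 9.41 in Ccl2-/-, 9.48 in Cx3cr1-/-Ccl2-/- and 10.10 in WT on day 4, against 10.85, 10.40, 10.45 and 10.54 in the same strains untreated. The difference there was -0.67 (SE 0.24, adjusted p = 0.0732 in limma, lower in 4 of 4 strains) and the groups overlapped, whereas 8.63% of the 21252 probes separated the day-4 Mgl1lo arrays below the untreated ones. With median scaling it was -0.02 in Mgl1lo, where that scaling put the median of all probes at 0.65.

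Ccl17 was not called in either Mgl1 subset, and its difference between day 4 and untreated muscle varied between strains. In Mgl1hi it was 5.52 in Cx3cr1-/-, 4.88 in Ccl2-/-, 5.07 in Cx3cr1-/-Ccl2-/- and 5.19 in WT on day 4, the first 3 not detected, against 5.76, 5.68, 9.06 and 8.85 in the same strains untreated. The differences were -0.80 in Ccl2-/-, -3.99 in Cx3cr1-/-Ccl2-/- and -3.66 in WT. In Cx3cr1-/- the direction is not determined, since the day-4 array is a weak one whose lowest detected signal (6.19) lay above the untreated value. Of the 16 Mgl1 arrays 9 had detected Ccl17, 2 from day 4 and 7 untreated. It thus passed the detection filter only through the untreated arrays, and its differences are given as descriptions. The mean difference was -2.17 (SE 0.61) in Mgl1hi and -1.58 (SE 0.61, lower in 3 of 4 strains) in Mgl1lo. Over 14 alternatives the difference in Mgl1hi was -2.82 to -1.03. Without Cx3cr1-/-, the strain in which untreated Mgl1lo had no detected Ccl17, it was -2.27 in Mgl1lo. With 1 value for each of the 8 pools, the mean of both subsets, Ccl17 differed by -1.87 (SE 0.47, adjusted p = 0.046 in limma, lower in 3 of 4 strains), a setting added after seeing the data in which 3.57% of 15624 probes were called lower.

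**Figure D3:**
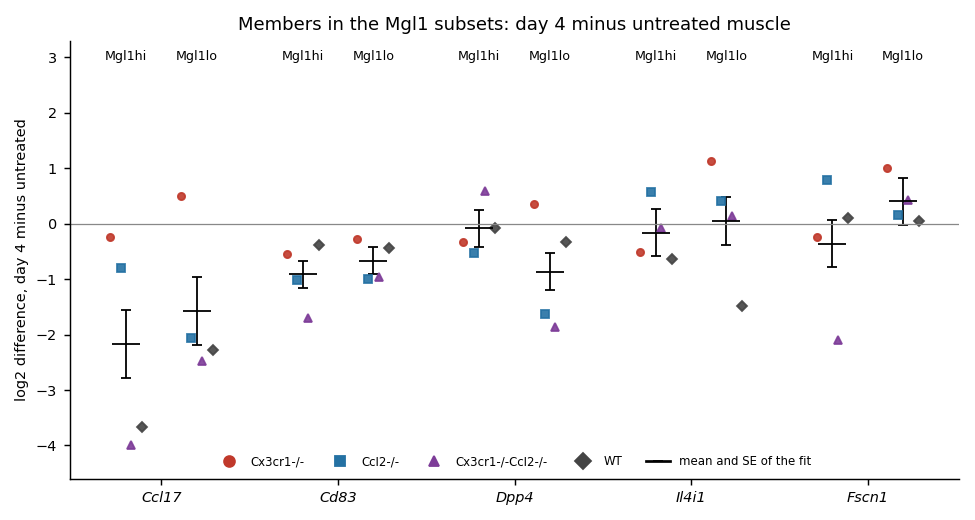
Log2 difference, day 4 minus untreated (vertical axis), of 5 genes in Mgl1hi and in Mgl1lo (horizontal axis). Points are strains, and the bars are the mean and standard error of the fit. Ccl17 differs by -2.17 in Mgl1hi and -1.58 in Mgl1lo with a wide spread between strains, Cd83 by -0.91 and -0.67 with all 8 points below 0.

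Fscn1, Il4i1 and Dpp4, already low in the Mgl1 subsets, were not called. Fscn1 differed by -0.36 in Mgl1hi and 0.41 in Mgl1lo (SE 0.43 each, adjusted p = 0.635 and 0.537 in limma), and Il4i1 by -0.16 and 0.05 (SE 0.43, adjusted p = 0.849 and 0.948). Dpp4 differed by -0.08 (SE 0.34, adjusted p = 0.905) in Mgl1hi and -0.87 (SE 0.34, adjusted p = 0.0948) in Mgl1lo, where 1 day-4 and 2 untreated arrays were detected. Without Cx3cr1-/-, Dpp4 passed in Mgl1lo, at -1.27 (adjusted p = 0.0325).

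The 5 genes were also set between the Mgl1 subsets, and none was called. On day 4 Mgl1hi minus Mgl1lo was 0.05 for Fscn1, 0.01 for Il4i1, 0.31 for Ccl17, 0.26 for Dpp4 and 0.01 for Cd83 (adjusted p = 0.626 to 0.994 in limma), where 3.64% of probes were called (1.75% higher and 1.88% lower). In untreated muscle it was 0.81 for Fscn1 (SE 0.43, adjusted p = 0.27), 0.91 for Ccl17 (SE 0.61, 0.401) and -0.52 for Dpp4 (0.381), with 8.17% of probes called (5.44% higher and 2.73% lower). The difference between the day effects of the 2 subsets, the interaction, was -0.77 for Fscn1, -0.21 for Il4i1, -0.60 for Ccl17, 0.78 for Dpp4 and -0.24 for Cd83 (adjusted p = 0.282 to 0.835). For the interaction 7.66% of probes were called (3.03% higher and 4.63% lower). Median scaling turned the direction of Cd83 on day 4, to -0.85 in Mgl1hi against Mgl1lo (adjusted p = 0.0484), and moved the median of all probes to -0.80.

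Ly6Chi cells were set against the mean of the Mgl1 subsets on day 4, over the 16 day-4 arrays. Il4i1 and Dpp4 passed the detection filter only through F4/80lo, with 6 of the other 12 arrays detected for each, so no test of them is given for this fit or for the strains. Fscn1 and Cd83 were not called, at -0.15 (adjusted p = 0.968 in limma) and -0.02 (adjusted p = 0.993). Among all probes 1.53% were called (0.738% higher and 0.79% lower).

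Of Fscn1 and Cd83, neither was called between strains. The 2 strains labelled as lacking Cx3cr1 minus the other 2, over the 4 day-4 subsets, gave 0.64 for Fscn1 (SE 0.27, adjusted p = 0.168 in limma, higher in 3 of 4 subsets) and 0.12 for Cd83 (adjusted p = 0.699). Both F4/80lo arrays of the strains labelled as lacking Cx3cr1 were weak ones, so in F4/80lo the strain and the weak arrays cannot be told apart. Only 5 of 15320 probes, 0.0326%, were called (0.00653% higher and 0.0261% lower). Ccl2-/- minus the other 3 strains gave 0.01 for Fscn1 (adjusted p = 0.99) and -0.29 for Cd83 (adjusted p = 0.631), and 0 of 15320 probes, 0%, were called. Each strain is 1 pool, so these p-values measure how alike a difference was across subsets of a pool without the spread between mice.

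The other genes of the migratory dendritic cell programme were read from a list of 36 genes on the array, of which 23 passed the detection filter on day 4. Of these, 12 were higher and 2 lower in F4/80lo than in the average of Ly6Chi, Mgl1hi and Mgl1lo (limma, median difference 1.21). Of all 15320 probes 14.7% were called, 4.44% higher and 10.2% lower, with a median of -0.17. Ccl5, a chemokine for T cells, was 10.4-fold higher (3.38, SE 0.49, adjusted p = 0.000356), at 11.40 in Cx3cr1-/-, 9.31 in Ccl2-/-, 10.38 in Cx3cr1-/-Ccl2-/- and 8.79 in WT. Socs2, a brake on cytokine signalling, was higher by 2.33 (SE 0.35, adjusted p = 0.000461) and Rel, an NF-kB subunit gene, by 2.12 (SE 0.31, adjusted p = 0.000331), and all 3 passed in each of 12 alternatives. The count of 12 was 5 without Cx3cr1-/-Ccl2-/- and 4 with median scaling, under which 108 probes were higher and 1886 lower, against 680 and 1566, and the median of all probes was -0.53. With the strain as a replicate block 13 of the genes were higher and 3563 probes were called, against 2246.

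Genes of conventional dendritic cell identity were higher in F4/80lo for 7 of 12 tested and lower for none (median 1.28, 5 to 8 higher over the alternatives). They included Ciita, the switch of the MHC class II genes, by 2.84 (SE 0.40), the adhesion gene Jaml by 2.51, the inhibitory receptor gene Btla by 2.38 and the transcription factor gene Irf4 by 2.26. On day 4 Irf4 was detected on 1 Ly6Chi, 3 Mgl1hi and 2 Mgl1lo arrays besides the 4 of F4/80lo. Like Il4i1 and Dpp4 it passed the filter only through F4/80lo, so its difference is a description, although it is counted among the 7. Ciita fell below the filter in an alternative that Irf4 passed, which left 11 alternatives for Ciita and 12 for Irf4. The difference of Ciita is therefore a description as well, although it is counted. Zbtb46, a transcription factor of conventional dendritic cells, was detected on 4 of 4 F4/80lo arrays (6.58 ± 1.04), and also on 3 of 4 or 4 of 4 arrays of every other group at lower means, of 5.21 to 5.92. Of 9 tested cDC1 genes 1 was higher and 2 were lower in F4/80lo, the higher being Batf3, a transcription factor gene of cDC1 cells, by 1.85 (SE 0.41). Like Ciita, Batf3 stayed above the filter in 11 alternatives, so this difference is a description too. Xcr1, the receptor that defines cross-presenting cDC1 cells, was not detected on any array, and Clec9a, another cDC1 receptor gene, on 1 of 4 F4/80lo arrays. Of 8 genes tested of cDC2 and monocyte-derived dendritic cells 2 were higher and 1 lower. The higher were H2-DMb2, a class II peptide loader, by 2.84 (SE 0.47), and the lectin gene Mgl2 by 2.13 (SE 0.32). The lower was Sirpa, at -1.05 (adjusted p = 0.0128 in limma, called in 9 of 12 alternatives). Mgl2 does not mark F4/80lo alone, since the subsets averaged here differed. On day 4 it was 3.74 higher in Mgl1hi than in Mgl1lo (adjusted p = 2.98e-06 in limma). Ly6Chi minus the mean of the Mgl1 subsets was -2.68.

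Of 14 macrophage genes 10 were lower in F4/80lo and none higher (median -2.35). Adgre1, which encodes the macrophage antigen of the gate, was 8.25 in F4/80lo and 10.9 to 11.6 in the other groups. The summed signal of the macrophage list was 2521 to 6637 in F4/80lo arrays, against 5755 to 35623 elsewhere, while that of the migratory list was 10068 to 17265 in F4/80lo and 6905 to 10791 elsewhere. Markers of other cells were read beside these lists. T and NK cell markers, 12 genes, had 1 to 5 detected and a summed signal of 793 to 1248 in F4/80lo, against 331 to 1448 elsewhere, with Cd3g and Ncr1 not detected on any array and Cd3e on no F4/80lo array. None of 6 B cell markers was detected in F4/80lo. The neutrophil list summed to 411 to 1568 in F4/80lo, against 363 to 596 elsewhere, and its part in the levels of the genes was not tested.

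**Figure D4:**
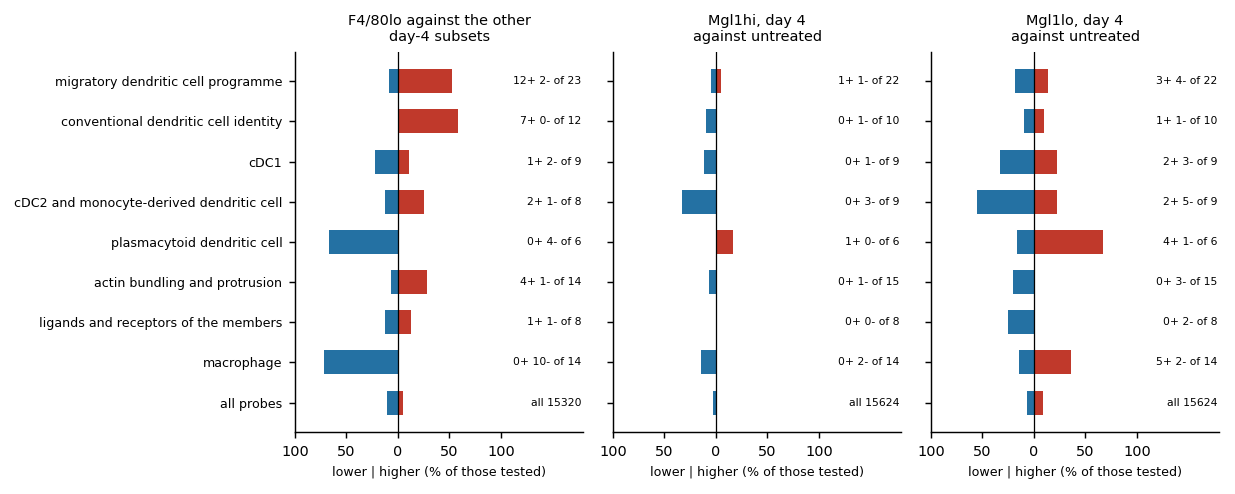
Share of tested genes called lower (left of 0) and higher (right of 0), in percent, for 8 gene lists and all probes, in 3 comparisons. The numbers give the genes higher (+) and lower (-) of those tested. In F4/80lo 12 of 23 migratory and 7 of 12 identity genes are higher and 10 of 14 macrophage genes lower; in Mgl1lo 5 of 9 cDC2 genes are lower on day 4.

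Genes that work with fascin in the actin skeleton were called in both directions. Of 14 tested genes of actin bundling and protrusion, 4 were higher in F4/80lo and 1 lower, and none was higher with median scaling. The actin crosslinker gene Actn1 was higher by 1.74 (SE 0.33, adjusted p = 0.00315 in limma, called in 11 of 12 alternatives). The lower gene was Rhob, at -2.27 (adjusted p = 0.000308 in limma, called in 12 of 12 alternatives). Among the ligands and receptors of the 8 genes, 8 of 20 could be tested and 1 was higher and 1 lower in F4/80lo. The higher was Csf2rb, the shared chain of the GM-CSF receptor, by 1.39 (SE 0.24, adjusted p = 0.00163), which did not pass without Cx3cr1-/-Ccl2-/- (0.0589) or with median scaling (0.295). Of 5 tested genes of amino acid catabolism, the group of Il4i1, none was called.

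Between day 4 and untreated muscle, the migratory list did not move one way in the Mgl1 subsets. In Mgl1hi 1 of 22 tested genes was higher and 1 lower (limma, median -0.09), and in Mgl1lo 3 were higher and 4 lower (median -0.22). In Mgl1lo, Cd200, an inhibitory surface ligand, was higher by 2.21 (SE 0.45, adjusted p = 0.00497) and Cxcl16, a chemokine for T cells, by 1.88 (SE 0.28, adjusted p = 0.000645), while Socs2 was lower (-1.996, SE 0.31, adjusted p = 0.000844). These 3 passed in each of 14 alternatives.

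Some genes of cDC2 and monocyte-derived dendritic cells were lower on day 4 in both Mgl1 subsets. In Mgl1lo 5 of 9 were lower and 2 higher (median -1.37, 3 without Cx3cr1-/-Ccl2-/-), and in Mgl1hi 3 were lower and none higher (median -0.85, 1 without WT). Cd209a, the mouse gene of DC-SIGN, a lectin of monocyte-derived dendritic cells, was 4.64 in Cx3cr1-/-, 5.54 in Ccl2-/-, 5.39 in Cx3cr1-/-Ccl2-/- and 5.73 in WT Mgl1hi on day 4, against 7.28, 8.50, 7.31 and 8.02 in the same strains untreated. The difference was -2.45 (SE 0.28). In Mgl1lo it was detected on no day-4 array, and untreated it was 5.61 in Cx3cr1-/-, 6.67 in Ccl2-/-, 7.04 in Cx3cr1-/-Ccl2-/- and 6.54 in WT. With 1 value for each pool Cd209a differed by -2.16 (SE 0.21, lower in 4 of 4 strains). Cd209a was detected on 4 of 4 untreated arrays of each subset and on 2 day-4 Mgl1hi arrays, so it passed the filter only through untreated muscle. Its differences are descriptions, although it is counted among the lower genes. Like Ccl17, it was high in F4/80lo, at 7.63 to 9.22.

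Batf3 and Irf4, transcription factor genes of conventional dendritic cells, were lower on day 4 in Mgl1lo. Batf3 was 5.51 in Cx3cr1-/-, 4.75 in Ccl2-/-, 5.10 in Cx3cr1-/-Ccl2-/- and 5.48 in WT on day 4, against 7.51, 7.22, 7.44 and 7.49 in the same strains untreated (-2.21, SE 0.23, adjusted p = 3.33e-05 in limma). Irf4 differed by -1.83 (SE 0.32, adjusted p = 0.00162), and Irf8, a factor of cDC1 cells and monocytes, went the other way, higher by 2.32 (SE 0.29, adjusted p = 0.000139). All 3 passed in each of 14 alternatives. Beside these differences, the 7 eosinophil markers summed to 207 to 281 in Mgl1lo on day 4 and 381 to 959 in untreated Mgl1lo, the 8 monocyte markers to 1368 to 1786 on day 4 and 2810 to 5131 untreated (4 of 7 tested were lower and 2 higher), and the 12 T and NK cell markers to 1152 to 1448 on day 4 and 445 to 696 untreated. In Mgl1hi the 14 macrophage markers summed to 20948 to 27695 on day 4 and 31338 to 35623 untreated, the monocyte markers to 2420 to 3005 on day 4 and 3137 to 3763 untreated, the T and NK cell markers to 535 to 913 on day 4 and 331 to 430 untreated, and the 8 fibroblast markers to 744 to 2505 on day 4 and 1935 to 4456 untreated. Their part in the levels of Ccl17, Cd83, Cd209a and the factors was not tested.

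Of the ligands and receptors, Tslp, a cytokine that acts on dendritic cells, followed the Mgl1 gate. It was 7.47 in Cx3cr1-/-, 7.88 in Ccl2-/-, 7.26 in Cx3cr1-/-Ccl2-/- and 7.90 in WT Mgl1hi on day 4, against 5.13, 4.47, 4.57 and 5.68 in Mgl1lo. The difference between Mgl1hi and Mgl1lo was 2.67 on day 4 (SE 0.26, adjusted p = 7.64e-05 in limma) and 3.07 in untreated muscle (SE 0.26, adjusted p = 2.17e-05), and passed in each of 12 alternatives.

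The genes most like the 8 across the 24 arrays were looked for by Pearson correlation, which here mostly reflects the 6 groups. Between pairs of the 7 detected genes the median r was 0.584 (0.24 to 0.939, 21 pairs), and it was 0.099 (-0.348 to 0.582) once each group's mean was removed. Against the mean profile of the genes, Ccr7 (0.933), Fscn1 (0.925), Il4i1 (0.911) and Dpp4 (0.86) stood closest, and Ccl17 (0.761), Cd83 (0.619) and Flt3 (0.591) farther off. Of the 17284 probes searched, the most like the mean profile were Klrd1, the natural killer receptor chain CD94 (0.936), the class II gene H2-Eb2 (0.918), the short-chain fatty acid receptor gene Ffar2 (0.915), Mreg, which encodes melanoregulin (0.904), and Klrb1b (0.899). They were followed by P2ry10, Ctnnd2, H2-Oa, Grasp and Klri1, at 0.881 to 0.869. Klrd1 measured 8.75, 8.31, 8.23 and 8.28 in the F4/80lo arrays of Cx3cr1-/-, Ccl2-/-, Cx3cr1-/-Ccl2-/- and WT, and was detected elsewhere only in untreated Cx3cr1-/-Ccl2-/-, at 5.22 in Mgl1hi and 5.70 in Mgl1lo. The gate removed NK1.1+ cells, and Klrb1c, which encodes NK1.1, was detected on 1 of 4 F4/80lo arrays.

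Single genes had their own nearest neighbours. Ccr7 was closest to Klrd1 (0.962), and Fscn1 to Klrd1 (0.939) and Mreg (0.938). Ccl17 was closest to Cd209a (0.807), P2ry10 (0.735) and Irf4 (0.731), and Cd83 to Cd74 (0.844), the class II invariant chain, Tcof1 (0.776) and H2-Aa (0.749), a class II chain. Cd74 was 10.92, 10.19, 10.76 and 10.47 in the F4/80lo arrays of Cx3cr1-/-, Ccl2-/-, Cx3cr1-/-Ccl2-/- and WT. In Mgl1lo it was 9.66, 7.15, 6.56 and 9.14 in these strains on day 4, against 10.74, 10.42, 10.46 and 10.47 untreated, with no overlap.

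**Figure D5:**
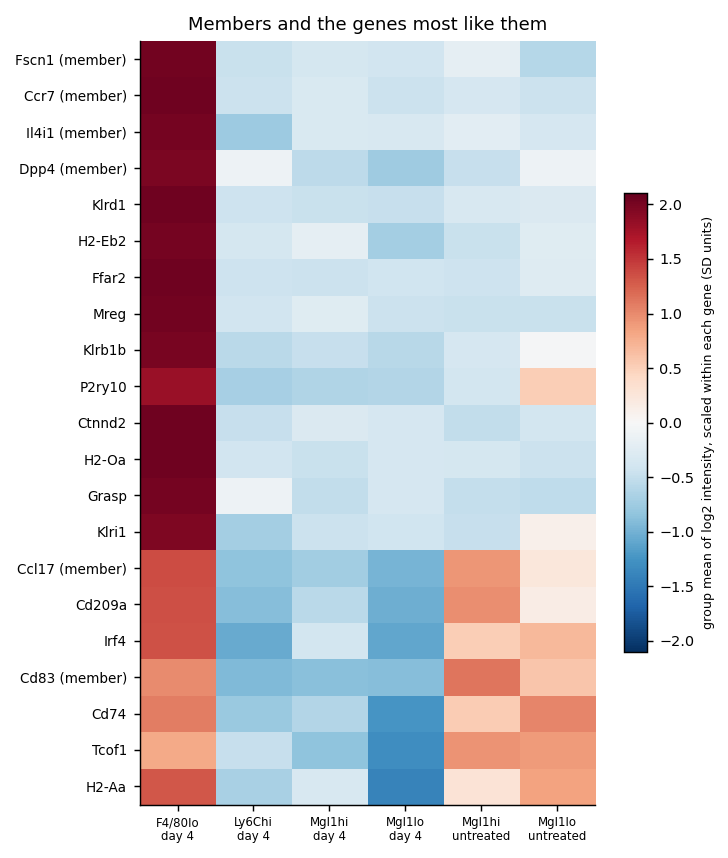
Group means of log2 intensity, scaled within each gene (colour, SD units), in the 6 subset and condition groups (columns) for 6 of the genes and those most like them (rows). Fscn1, Ccr7, Il4i1, Dpp4 and the 10 genes most like the mean profile are high in F4/80lo, and Ccl17, Cd83 and most of their nearest genes are high in untreated Mgl1hi and Mgl1lo as well, whereas P2ry10 is at 5.14 in untreated Mgl1hi.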

How the data were processed

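RNA of sorted cells was amplified, labelled with biotin and hybridised to Illumina WG6 V2 arrays, 1 array for each strain, subset and condition. The authors deposited one intensity per probe and array that was not normalized, each with a detection p-value, and a matrix of processed intensities that lies within 0.0276 log2 units of quantile-normalized signals. The submitters' processing notes name GenomeStudio without a version.

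The deposited intensities were background-corrected (normexp, using the deposited detection p-values, offset 16), quantile-normalized over 24 arrays and taken to log2 (neqc, limma 3.58.1, R 4.3.3). Differences of dim probes become larger through the background correction, while quantile normalization puts all arrays on 1 distribution. Tests used lmFit and eBayes on probes with a detection p under 0.05 in 8 or more of the 16 fitted arrays, with Benjamini-Hochberg adjustment over all probes of the fit and a threshold of 0.05. Precision is limited by how many arrays there are. The platform annotation pairs 34885 probes with 1 symbol, 18 with several (left unnamed) and 10378 with none. No 2 arrays were identical and 0 columns of other samples were present. The fits were tested on simulated data.

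The genes and lists were chosen with earlier results of these data known. Named beside the 8 genes are up to 4 called genes per list and comparison with the largest difference, and the 10 genes most like their mean profile, or the 3 most like each single gene. The strain entered the fits of day 4 against untreated muscle as a block. The subsets of a strain and condition are taken to come from a single pool of mice, which pairs them. Deviations from the group means correlated between arrays of 1 pool with a median of 0.164 in 28 pairs, with 23 pairs above 0.1, and with -0.026 in 180 pairs of different strains. Alternatives were no background correction, median scaling, the authors' processed values, other filters, a prior with a trend, leaving out the weak arrays or 1 strain, the replicate block, 1 subset only and, added after seeing the data, 1 value per pool.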

Additional observations from a re-analysis of the deposited data

Results flagged for a closer look

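In 37 groups of 4 arrays with a detected value, 4 arrays stood apart from the other 3 of their group by Dixon's test, which chance alone does in about 1 of 20 groups. Il4i1 was 7.30 in untreated WT Mgl1lo, where the other 3 arrays lay at 4.72 to 5.09 and were not detected. Ccr7 was 5.54 in Ccl2-/- Mgl1hi on day 4, against 4.55 to 4.64, not detected, in the other strains. Dpp4 was 5.36 in Cx3cr1-/- Mgl1lo on day 4, against 4.76 to 4.77, not detected, in the other strains. Cd83 was 10.53 in Cx3cr1-/- Ly6Chi, against 9.61 to 9.71 in the other strains. Of these 4 arrays none is among the weak ones.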

How the results depend on the processing

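The number of the 8 genes called between day 4 and untreated muscle was 1 in Mgl1hi (Cd83). It was 2 with median scaling, without the weak arrays and with a trend in the prior, 0 with no filter, 0 with no replicate block, 0 with 1 subset only, and 0 to 1 when 1 strain at a time was left out. The 1 gene called without Cx3cr1-/- was Ccl17, whose differences between day 4 and untreated muscle are descriptions in every setting. In Mgl1lo the number was 0, and 1 with no background correction, with the authors' processed values, with a trend in the prior and with 1 value per pool, an alternative chosen after seeing the data. It was 0 to 2 with 1 strain left out, 2 being without Cx3cr1-/-. Between Mgl1hi and Mgl1lo on day 4 and for the interaction, median scaling called 1 gene in place of 0, Cd83 at -0.85 (standard error 0.34, adjusted p = 0.0484 in limma), opposite in sign to its difference of 0.01, and at -1.34 (adjusted p = 0.0316). The migratory genes higher in F4/80lo numbered 12, 4 with median scaling and 5 to 12 with 1 strain left out. The cause of these changes was not tested.

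Counts over all probes depended more on the setting. F4/80lo against the other subsets had 2246 calls, 1086 without the weak arrays, 1087 without Cx3cr1-/-, 327 without Cx3cr1-/-Ccl2-/- and 3563 with the strain as a replicate block. Day 4 against untreated had 2430 in Mgl1lo (5465 with median scaling, 883 without Cx3cr1-/-Ccl2-/-, 1171 without Ccl2-/-, 1544 without WT), 620 in Mgl1hi (974 with median scaling, 74 with 1 subset only, 76 to 277 with any strain left out) and 994 with 1 value per pool. Ly6Chi against the Mgl1 subsets had 234, 1589 without the weak arrays, 135 with median scaling, 46 without Cx3cr1-/-Ccl2-/-, 72 without Ccl2-/- and 134 without WT. Mgl1hi against Mgl1lo had 568 on day 4 (7073 with median scaling, 877 without the weak arrays, 903 with a trend in the prior, 88 without Cx3cr1-/-, 238 without Ccl2-/-, 32 without Cx3cr1-/-Ccl2-/-) and 1277 in untreated muscle (452 without Cx3cr1-/-Ccl2-/-, 602 without Ccl2-/-, 641 without WT). The interaction had 1197 (7246 with median scaling, 774 with no filter, 19 to 559 with any strain left out) and Cx3cr1 deficiency 5 (7587 with median scaling, 0 to 2 without WT, Cx3cr1-/- or Ccl2-/- or with a trend in the prior, 1 without F4/80lo). Ccl2-/- had 0, 14 without the weak arrays and 120 over Ly6Chi and Mgl1lo alone, and could not be fitted without the Ccl2-/- arrays. The replicate block changed no other call of the 8 genes. Signals near background limit Ccr7, Ccl22 and Flt3, for which only bounds or no fold can be given.

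Differences near 0 took the opposite sign in 40 cases, given here in log2 units. None of those tested was called there or in the main setting. The values of Il4i1 and Dpp4 in Ccl2-/- and under Cx3cr1 deficiency are descriptions only, since no test of these genes is given for the strains. With median scaling these were Cd83 in Ccl2-/- (0.226), under Cx3cr1 deficiency (-0.586) and in Ly6Chi (0.162), Dpp4 in Ccl2-/- (0.038), and Fscn1 (-0.21) and Il4i1 (-0.178) in Mgl1hi against Mgl1lo on day 4. Without the weak arrays they were Ccl17 (-0.115) and Cd83 (-0.047) in Mgl1hi against Mgl1lo on day 4, Cd83 in Ly6Chi (0.068), Dpp4 (0.007) and Il4i1 (0.003) between day 4 and untreated Mgl1hi, and Il4i1 in untreated Mgl1hi against Mgl1lo (-0.105), between day 4 and untreated Mgl1lo (-0.274) and in the interaction (0.277). Fscn1 in Ccl2-/- was -0.025 with the authors' processed values, -0.028 with no background correction and -0.031 over Ly6Chi and Mgl1lo alone, and over those subsets Il4i1 was -0.39 in Ccl2-/- and 0.126 under Cx3cr1 deficiency. Il4i1 between day 4 and untreated Mgl1lo was -0.017 with the authors' processed values, -0.02 with no background correction and -0.057 with 1 value per pool, which put Fscn1 at 0.023 against Mgl1hi.

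Leaving out 1 strain at a time, the differences that took both signs were, for Cd83, -0.283 to 0.52 under Cx3cr1 deficiency (-0.036 without Ccl2-/-), -0.131 to 0.131 in Ly6Chi and -0.091 to 0.12 in Mgl1hi against Mgl1lo on day 4 (-0.056 without WT). For Dpp4 it was -0.089 to 0.063 between day 4 and untreated Mgl1hi. For Fscn1 they were -0.309 to 0.314 in Ccl2-/-, -0.289 to 0.068 in Ly6Chi, -0.176 to 0.382 in Mgl1hi against Mgl1lo on day 4 (-0.046 without Ccl2-/-) and -0.746 to 0.22 between day 4 and untreated Mgl1hi. For Il4i1 the difference was -0.299 to 0.026 under Cx3cr1 deficiency, a description with no test. Il4i1 was also at -0.11 to 0.603 in untreated and -0.448 to 0.43 in day-4 Mgl1hi against Mgl1lo. It was -0.31 to 0.557 between day 4 and untreated Mgl1lo (-0.072 without Ccl2-/-), and -0.563 to 0.265 in the interaction.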
